A study of Mus musculus with 40 samples.

Results

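The response of the mouse mammary gland to dietary conjugated linoleic acid (CLA, isomers of linoleic acid with conjugated double bonds) was followed from 108 h to 132 h of feeding, gene by gene, to see which CLA effects were larger, equal or smaller at the later time. The tissue was the number 4 inguinal gland of Balb/cJ mice whose ovaries had been removed at 21 d of age and who had then recovered for 7 d. All 4 groups shared this surgery. Controls ate a defined diet based on AIN 93G, and the treated mice ate that diet with 2.7% fat as CLA. Each of the 4 groups (controls at 108 h, CLA at 108 h, controls at 132 h and CLA at 132 h) had 5 mice, and different mice were sampled at each time. Of the 40 libraries of the series, these 20 gave the comparison. The estrogen groups and their controls were fitted along with them, and so entered the filter on low counts, the scaling and the estimate of spread (17852 genes were tested in this fit, 17304 with the 20 libraries alone). Every gene was a member by rule: 17852 of 47729 genes in the tables passed the filter on low counts and were tested. The "CLA effect" is the log2 fold change of CLA over control at 1 time, given with its standard error. The "difference" is the effect at 132 h minus the effect at 108 h, also in log2 units. Values given for a gene "at 108 h" and "at 132 h" without another unit are CLA effects. "Rose" and "fell" are used only where an adjusted p was under 0.05, and CPM is the count scaled to library size, per M counts.

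The mammary fat pad consists largely of adipocytes, with fibroblasts, vessels and immune cells around a sparse epithelial tree, and after ovariectomy the epithelium grows little. CLA feeding is known in mice for the loss of adipose tissue, in which adipocytes make less triglyceride and macrophages enter the fat. Macrophages that take up lipid from adipocytes express a known set of genes for lysosomes, cell fusion and lipid handling, and fibroblasts lay down collagen where fat is remodelled.

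Libraries held totals of 18.18 to 35.66 M counts, and 20707 to 22621 genes had at least 1 count. Adipocyte, endothelial and stromal markers were present in every library: Fabp4 at 5882 to 9928 CPM, Adipoq at 387 to 1776 CPM, Pecam1 at 185 to 373 CPM and Col1a1 at 4735 to 8669 CPM. Luminal epithelial markers were low and uneven, with Krt8 at 1.71 to 42.3 CPM and Epcam at 2.37 to 36.03 CPM. The basal keratins Krt5 (0.8 to 410.5 CPM) and Krt14 (0.427 to 249 CPM), which skin also expresses, spread wider still. A list of skin and hair genes had a mean above 1.5 log2 CPM in 6 libraries, 3 controls at 108 h and 3 controls at 132 h, and in none of the CLA libraries. Without those 6, each time kept 2 controls. Skeletal muscle genes were also uneven in controls (list means −0.84 to 3.45 log2 CPM at 108 h and −0.74 to 5.92 at 132 h) and were high in 1 CLA library, replicate 1 at 132 h (2.12 log2 CPM). In whole tissue, more cells of a type and more RNA per cell cannot be told apart. The times lie in different count tables, so changes within a diet cross tables, whereas a factor that scales a gene in all libraries of a table cancels in the difference.

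At 108 h, 8415 genes (47.1% of those tested) differed between diets, 4363 (24.4%) higher with CLA and 4052 (22.7%) lower. At 132 h the count was 10216 (57.2%), 5000 (28%) higher and 5216 (29.2%) lower. These shares are the background for all counts of list members below. For 0 genes (0%) was the difference called by edgeR's quasi-likelihood F test with Benjamini-Hochberg adjustment. The smallest adjusted p, 0.0549, belonged to Tceal8 and Lum. At an unadjusted p under 0.05, 2216 genes (12.4%) stood out, 1183 above 0 and 1033 below. DESeq2 on the same counts called 130 genes, 101 above 0 and 29 below. The count from edgeR also moved with single libraries: without CLA replicate 4 at 108 h it was 137, and without CLA replicate 5 at 132 h it was 79. All of these (DESeq2 and both reduced sets) called 47 genes in common, 43 of them above 0. The values below are therefore estimates with intervals for genes none of which passed the threshold as a difference in the full set. The 95% interval of the difference reached, in the median, 0.368 log2 units to either side with 5 mice a group. That width is not adjusted for the 17852 genes tested and is no limit of detection. Larger shifts could also go uncalled, as did the difference of 0.90 for Lum.

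Effects were larger in size at 132 h for 66.6% of all tested genes, for 65.3% of the genes called at 108 h and for 82.2% of those called at 132 h. A call at 132 h selects for large effects at 132 h, so the 82.2% is in part fixed by that choice. A call at 108 h selects the other way. The median absolute effect was 0.30 log2 at 108 h and 0.38 at 132 h, with the same median standard error of 0.13 at both times. Of the genes called at 108 h, 86.8% were also called at 132 h, and 71.5% of those called at 132 h were also called at 108 h. Their signs were equal for 7300 genes and opposite for 6. Among the 7300, 5496 had the larger effect at 132 h and 1804 at 108 h, and the median ratio of sizes was 1.21. Genes are not independent replicates; across them the effects had a Pearson r of 0.913, and the first principal axis had a slope of 1.26. The r was 0.761 without the 6 libraries high in skin genes and 0.876 within the first run of animal numbers, where 2 controls and 3 CLA mice remain at each time. The share larger at 132 h was then 63.4% and 60.5%. All controls of the first run were among the 6 libraries high in skin genes. These fits therefore shared no control at 108 h or 132 h, here and wherever both are given below. Without the 6, first-run CLA mice remained but no first-run controls, so diet and run could not be fully told apart. Of these groups, the second run held only mice of 132 h. For 5875 genes (32.9%) the effect was called at both times with 1 sign and the interval of the difference lay within 1 log2 unit of 0. These are called held, 3159 higher and 2716 lower with CLA. The rule bounds the difference and does not make it 0: of the 5875, 759 had a difference with an unadjusted p under 0.05. For another 1425 genes called at both times the interval was wider than that.

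**Figure D1:**
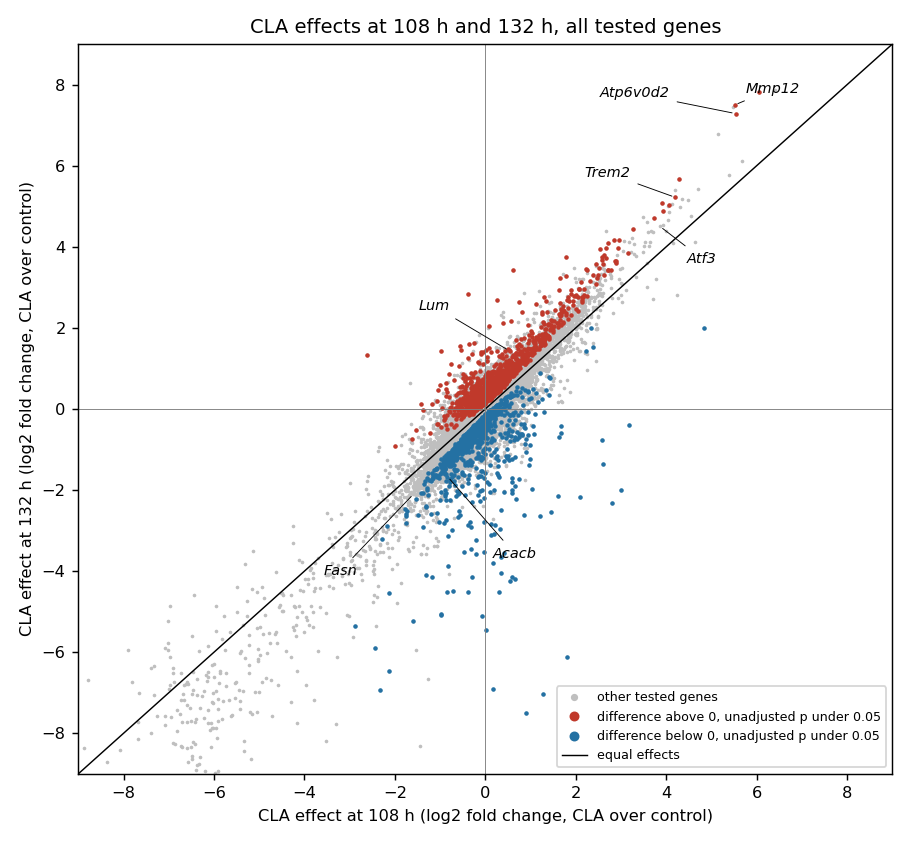
CLA effects (log2 fold change, CLA over control) at 108 h (x axis) and 132 h (y axis), 1 dot per tested gene, 17852 in all, with 10 outside the axes. The black line marks equal effects; red and blue dots are the 1183 and 1033 genes whose difference was above or below 0 at an unadjusted p under 0.05, and none passed after adjustment.

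Genes of the fibroblast matrix had larger estimated effects at 132 h. Of 20 list members, the 108 h test gave 11 that rose and 3 that fell, the 132 h test 15 and 1. The list's median effect was 0.32 at 108 h and 0.61 at 132 h, the difference was above 0 in 19 of 20 (8325 of 17852 over all genes), and its median was 0.38 against −0.02 over all genes. The median difference was 0.35 within the first run and 0.41 without the libraries high in skin genes. At an unadjusted p under 0.05, 11 members lay above 0 and 1 below. Lum encodes lumican (GRCm38 chromosome 10, 97565128 to 97572703), a small proteoglycan that binds collagen fibrils. At 108 h, Lum read 259, 222, 280.1, 237 and 235 CPM in controls and 323, 324, 303, 458 and 374 CPM with CLA. At 132 h, Lum read 193, 155, 171, 165 and 179.6 CPM in controls and 442, 485, 531, 484 and 386 CPM with CLA. The diets did not overlap at either time, all 5 controls at 132 h lay below all 5 at 108 h, and the CLA libraries of both times overlapped. The Lum effect was 0.53 ± 0.12 (adjusted p = 3.77e-04) and then 1.43 ± 0.12 (adjusted p = 4.46e-12), a difference of 0.90 (95% interval 0.55 to 1.24, adjusted p = 0.0549).

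Dcn, decorin (GRCm38 chromosome 10, 97479609 to 97518143), is a related collagen-binding proteoglycan. At 108 h, Dcn read 988, 814, 935, 889.9 and 837 CPM in controls and 799, 795, 684, 955 and 873 CPM with CLA, and the diets overlapped. At 132 h, Dcn read 829, 733, 641, 646 and 692 CPM in controls and 1224, 1089, 1029, 1190.0 and 886 CPM with CLA, with every CLA library above every control. Its effect went from −0.12 ± 0.11 (adjusted p = 0.389) to 0.61 ± 0.11 (adjusted p = 1.44e-05), a difference of 0.73 (95% interval 0.42 to 1.05, adjusted p = 0.0762). Efemp1, which encodes the matrix glycoprotein fibulin-3, had effects of 0.16 ± 0.12 and 0.93 ± 0.12 and a difference of 0.77 (95% interval 0.44 to 1.10, adjusted p = 0.0762). The fibrillar collagen genes showed no called effect at 108 h and rose at 132 h. Effects were 0.18 at 108 h and 0.61 at 132 h for Col1a1, 0.22 at 108 h and 0.66 at 132 h for Col1a2 and 0.18 at 108 h and 0.68 at 132 h for Col3a1. At 108 h, Col1a1 read 5599.7, 5106, 5714, 5436 and 5385 CPM in controls and 5718, 7318, 6317, 6305 and 5248 CPM with CLA. At 132 h, Col1a1 read 5194, 4829, 4735, 4959.9 and 5237 CPM in controls and 8669, 7426, 6770.0, 7647 and 7593 CPM with CLA, and the diets no longer overlapped. The difference for Col1a1 was 0.43 (95% interval 0.05 to 0.81, adjusted p = 0.339). Postn, periostin, rose at both times, with effects of 0.68 at 108 h and 1.25 at 132 h. Tnc, tenascin-C, a matrix protein of tissue remodelling, went the other way: it rose at 108 h (0.81 ± 0.17), its effect at 132 h was 0.29 ± 0.17 and not called, and its difference was −0.51 (95% interval −0.99 to −0.03, adjusted p = 0.362).

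Of 17 metalloproteinase and inhibitor genes, the 108 h test gave 8 that rose and 4 that fell, the 132 h test 11 and 4. Of all tested genes 24.4% were higher at 108 h and 28% at 132 h, and 22.7% and 29.2% were lower, so the 4 of 17 that fell at each time were near or below that background. Mmp2 encodes a gelatinase made by fibroblasts (GRCm38 chromosome 8, 92827291 to 92853420). At 108 h, Mmp2 read 356, 328, 358, 329 and 331 CPM in controls and 324, 387, 309, 378 and 331 CPM with CLA, and the diets overlapped. At 132 h, Mmp2 read 346, 315, 307, 313 and 325 CPM in controls and 533, 489, 430.0, 523 and 515 CPM with CLA. All 5 of those CLA libraries exceeded all 5 controls and also the CLA libraries of 108 h. Its effect was 0.02 ± 0.10 (adjusted p = 0.875) and then 0.63 ± 0.11 (adjusted p = 3.86e-06), with a difference of 0.61 (95% interval 0.31 to 0.91, adjusted p = 0.113). Mmp14, the membrane-bound protease that activates Mmp2, had effects of 0.40 at 108 h and 0.94 at 132 h and a difference of 0.54 (95% interval 0.28 to 0.81, adjusted p = 0.113). Pdgfra, the receptor that marks fibroblasts and adipose progenitors, rose at both times (0.56 at 108 h and 1.14 at 132 h), and its difference was 0.58 (95% interval 0.29 to 0.87, adjusted p = 0.116). Over the 14 adipose progenitor genes counts were mixed, as the 108 h test gave 2 that rose and 6 that fell, the 132 h test 4 and 4. Dpp4, a marker of early progenitors, was at −0.30 at 108 h and 0.44 at 132 h, and only the later effect was called.

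The gene with the smallest difference p besides Lum was Tceal8, an X-linked member of the transcription elongation factor A-like family (GRCm38 chromosome X, 136168984 to 136172342). At 108 h, Tceal8 read 37.8, 34.7, 37.9, 34.8 and 34.3 CPM in controls and 51.3, 41.8, 46.3, 58.5 and 49.97 CPM with CLA. At 132 h, Tceal8 read 27.1, 22.7, 26.8, 25.1 and 26.98 CPM in controls and 51.6, 60.9, 57.7, 54.1 and 51.4 CPM with CLA. The diets were apart at both times, and the controls of 132 h lay below those of 108 h. By its interval Tceal8 still met the held rule. The effect was 0.47 ± 0.08 and then 1.10 ± 0.09, with a difference of 0.63 (95% interval 0.39 to 0.88, adjusted p = 0.0549). With predicted genes and genes below a mean of 1 log2 CPM left out, others of the 8 smallest p above 0 were Trerf1, a transcriptional regulator (1.10 at 108 h and 1.64 at 132 h), Clip3, a microtubule-binding protein (0.22 at 108 h and 0.82 at 132 h), Rcn2, a calcium-binding protein of the secretory pathway (0.27 at 108 h and 0.66 at 132 h), and Calcrl. Calcrl, the receptor for adrenomedullin, was at −0.22 ± 0.10 at 108 h, not called, and rose at 132 h (0.48 ± 0.10). Calcrl in controls fell between the times by 0.71 log2 (adjusted p = 3.56e-04), and the change with CLA was −0.01. In a fit to the 20 libraries with the animal-number run in the model, 0 genes were called as changed in controls, so Calcrl was not called. The count was also 0 within the first run. The 20 libraries without the run term gave 39, against 491 in the full fit.

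**Figure D2:**
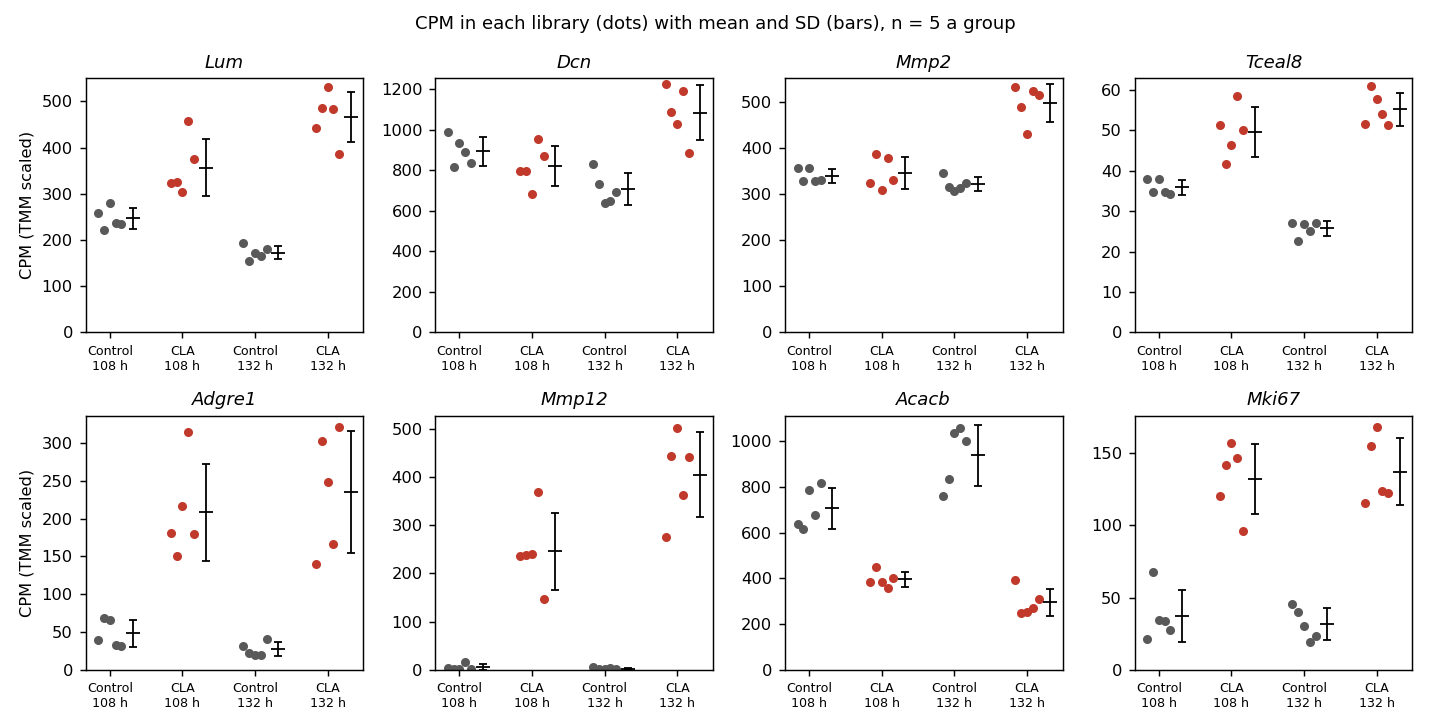
CPM after TMM scaling of 8 genes in each of the 20 libraries (grey dots controls, red dots CLA), with mean and SD (bars) of the 5 mice per group, on linear axes from 0. Lum, Dcn and Tceal8 are lower in the 132 h controls than in the 108 h controls on average, Mmp2 is higher in CLA libraries at 132 h than at 108 h, and the CLA libraries of both times overlap for Mki67.

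Macrophage genes had larger point estimates at 132 h. Of 17 identity genes measured, 15 rose at 108 h and 15 at 132 h, against 24.4% and 28% of all tested genes, and 0 fell at either time. The list's median effect was 1.43 at 108 h and 2.13 at 132 h. The difference was above 0 in 16 of 17, with a median of 0.66 (0.46 within the first run, 0.55 without the libraries high in skin genes). Adgre1 encodes F4/80, the surface marker of mouse macrophages. At 108 h, Adgre1 read 39.7, 69.01, 66.3, 33.3 and 31.9 CPM in controls and 180.4, 150.1, 217, 314 and 179.7 CPM with CLA. At 132 h, Adgre1 read 31.7, 21.5, 20.2, 20.1 and 41.1 CPM in controls and 139.6, 302, 248, 166 and 321 CPM with CLA. The diets were apart at both times, and the libraries of each diet overlapped between the times. Its effect was 2.12 ± 0.31 and 3.13 ± 0.33, with a difference of 1.01 (95% interval 0.14 to 1.89, adjusted p = 0.322). Cd68, a lysosomal glycoprotein of macrophages, had effects of 2.85 at 108 h and 3.66 at 132 h and a difference of 0.80 (95% interval 0.27 to 1.34, adjusted p = 0.208). For Csf1r, the receptor of the macrophage growth factor CSF1, the effects were 1.12 at 108 h and 1.78 at 132 h, and for Tyrobp, the signalling adaptor of TREM2, they were 2.32 at 108 h and 3.16 at 132 h.

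The list of 18 lipid-associated macrophage and cell fusion genes was split, as the 108 h test gave 13 that rose and 2 that fell, the 132 h test 14 and 2. The 2 that fell at both times were Acp5, a phosphatase known from osteoclasts (−0.91 at 108 h and −1.17 at 132 h), and Apoe, the lipid carrier that many cells of the gland make (−0.56 at 108 h and −0.64 at 132 h). Mmp12 encodes macrophage elastase. At 108 h, Mmp12 read 4.10, 2.34, 1.49, 16.2 and 2.40 CPM in controls and 236, 238, 241, 369.7 and 147 CPM with CLA. At 132 h, Mmp12 read 5.23, 1.57, 0.656, 2.65 and 1.28 CPM in controls and 276, 445, 502, 363 and 441 CPM with CLA. No CLA library came near any control. The effect was 5.51 ± 0.67 and then 7.49 ± 0.75, but the interval of the difference was wide: 1.99 (95% interval 0.18 to 3.80, adjusted p = 0.349). Trem2, the lipid receptor of these macrophages, read 3.60, 5.10, 6.29, 9.22 and 4.08 CPM in controls and 95.2, 94.5, 101, 139.8 and 91.6 CPM with CLA at 108 h. At 132 h, Trem2 read 3.73, 3.36, 2.43, 3.12 and 7.54 CPM in controls and 93.5, 173, 157, 113 and 212 CPM with CLA. The diets were apart at both times, the CLA libraries of both times overlapped, and the difference was 1.02 (95% interval 0.12 to 1.92, adjusted p = 0.336). The proton pump subunit Atp6v0d2, needed for fusion of macrophages and osteoclasts, had the effects 5.53 at 108 h and 7.28 at 132 h. Ctsk, cathepsin K, a protease that degrades collagen, rose at both times (0.33 at 108 h and 0.99 at 132 h) with a difference of 0.65 (95% interval 0.28 to 1.03, adjusted p = 0.141). Itgax, the integrin CD11c, was at 3.91 at 108 h and 5.07 at 132 h.

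Most lysosomal and proton pump genes held. Of 22, the 108 h test gave 20 that rose and 0 that fell, the 132 h test 21 and 0, 19 met the held rule, and the median effect was 0.66 at 108 h and 0.67 at 132 h. The median of their differences was 0.12, and 18 of 22 lay above 0, against 8325 of 17852 over all genes. At an unadjusted p under 0.05, 5 lay above 0 and 1 below, so held does not mean unchanged here. Of 11 alternative macrophage activation genes, 4 rose at 108 h and 5 at 132 h, against 24.4% and 28% of all tested genes, and 0 fell. Their difference was above 0 in 8 and below 0 in 3. At an unadjusted p under 0.05, 3 lay above 0 and 1 below. Within this mixed list, Mrc1, the mannose receptor of alternatively activated macrophages, rose at both times (1.18 at 108 h and 1.71 at 132 h, difference 0.53 (95% interval 0.14 to 0.92, adjusted p = 0.24)), as did the folate receptor gene Folr2 (1.20 at 108 h and 1.55 at 132 h). Abcg1, which exports cholesterol from macrophages, rose at both times as well (2.15 at 108 h and 2.64 at 132 h). Its list of 11 cholesterol efflux and LXR target genes was mixed, with 5 that rose and 3 that fell at each time and a median effect of 0.21 at both.

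Inflammatory signals differed from list to list. Over all tested genes, 24.4% rose and 22.7% fell at 108 h, and 28% and 29.2% at 132 h. Of 18 chemokine genes, the 108 h test gave 8 that rose and 1 that fell, the 132 h test 12 and 1. Their median difference of 0.89 dropped to 0.51 without control replicate 5 at 108 h, to 0.59 without control replicate 3, and to 0.32 within the first run. Ccl9, a chemokine of myeloid cells, was at 2.58 at 108 h and 3.66 at 132 h. Cxcl9, which draws T cells, fell at both times (−0.47 at 108 h and −0.93 at 132 h). In the interleukin-1, interleukin-6 and TNF list, 6 of 17 rose at 108 h and 12 at 132 h. Il1rn, the interleukin-1 receptor antagonist, was at 4.30 at 108 h and 4.99 at 132 h, Tnf at 0.49 at 108 h and 0.91 at 132 h (called only at 132 h) and the TNF receptor gene Tnfrsf1b at 1.17 at 108 h and 1.73 at 132 h. Of 15 MHC class II and dendritic cell genes, the 108 h test gave 9 that rose and 2 that fell, the 132 h test 10 and 2. Cd74, the invariant chain, was at 1.38 at 108 h and 2.10 at 132 h and H2-Aa at 1.44 at 108 h and 2.06 at 132 h.

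Of 19 interferon-induced genes, 1 was called higher at 108 h and 10 at 132 h, against 24.4% and 28% of all tested genes. The list gave the largest median difference, 0.98, above 0 in 19 of 19. Its size moved with 1 library. CLA replicate 3 at 132 h averaged 6.20 log2 CPM over the list, and the other 4 ranged from 3.93 to 4.31, and without it the median difference was 0.24. Control replicate 5 at 108 h was also high (5.24 against 3.42 to 4.22), and without that library the median difference was 0.62. Rsad2, an antiviral enzyme gene, had effects of 0.07 ± 0.67 and 2.05 ± 0.70.

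**Figure D3:**
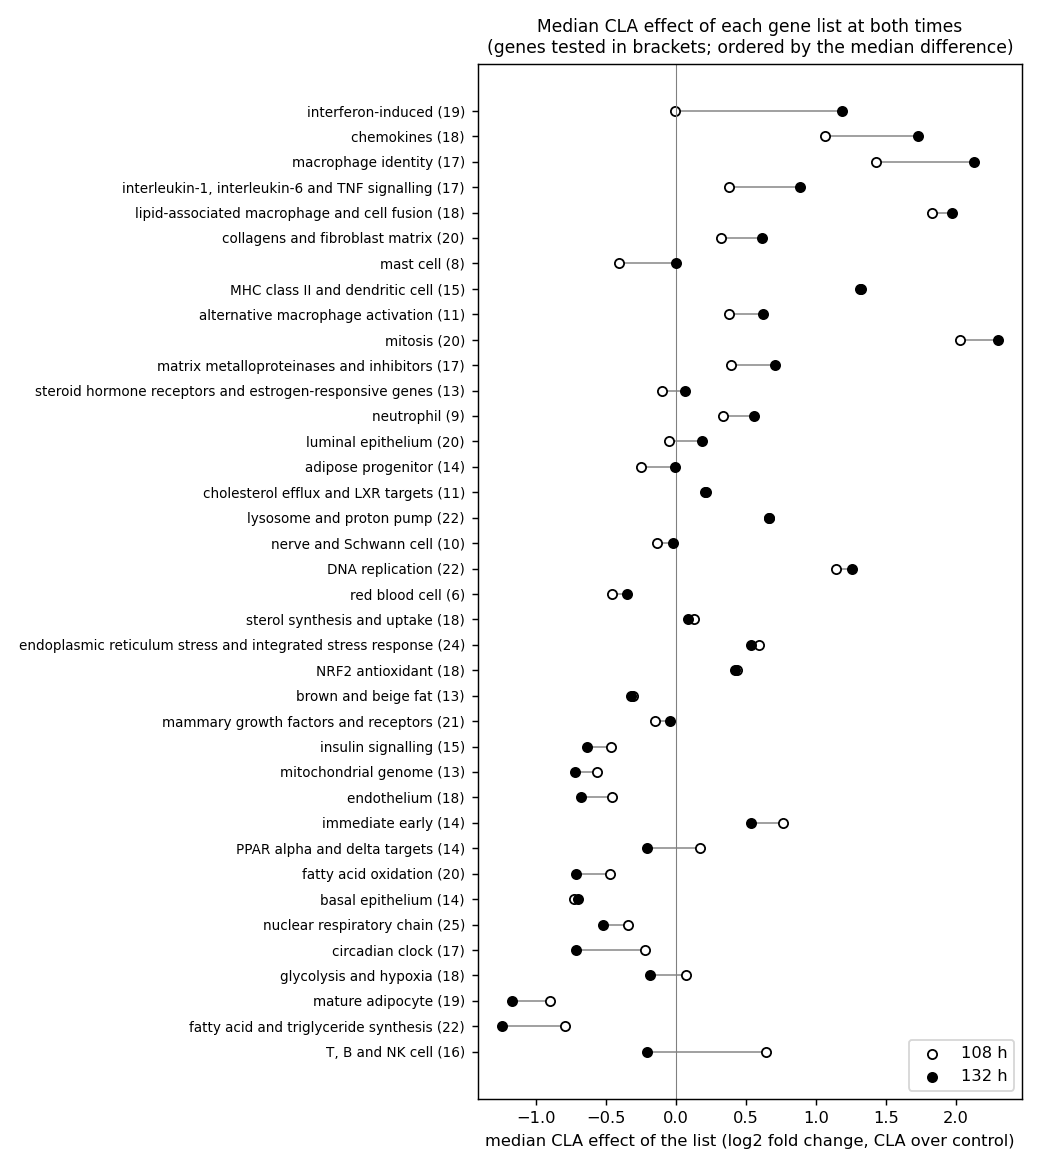
Median CLA effect (log2 fold change, CLA over control) of each gene list at 108 h (open circles) and 132 h (filled circles), joined by a line, with the number of genes tested in brackets and lists ordered by their median difference. Macrophage, chemokine and fibroblast matrix lists lie further right at 132 h, and adipocyte and lipid synthesis lists further left. The medians of the lysosomal, DNA replication and integrated stress response lists moved little. The skin and muscle lists are not shown.

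Adipocyte genes were lower with CLA at both times. Of 19 mature adipocyte genes, 18 fell at 108 h and 17 at 132 h, against 22.7% and 29.2% of all tested genes, and 0 rose. The difference was below 0 in 18 of 19, with a median of −0.31, and 15 of the 19 met the held rule. Adipoq, which encodes the hormone adiponectin (GRCm38 chromosome 16, 23146536 to 23158028), read 1484, 1196, 1373, 1380.3 and 1383 CPM in controls and 636, 658, 571, 523 and 764 CPM with CLA at 108 h. At 132 h, Adipoq read 1212, 1509, 1402, 1776 and 1432 CPM in controls and 726, 387, 483, 589.6 and 548 CPM with CLA. CLA libraries lay below all controls at both times. The effect was −1.11 ± 0.12 and then −1.42 ± 0.12, a difference of −0.31 (95% interval −0.64 to 0.02, adjusted p = 0.427). Pnpla2, the adipose triglyceride lipase, had effects of −0.78 at 108 h and −1.17 at 132 h, and the lipid droplet protein gene Plin4 −0.91 at 108 h and −1.40 at 132 h.

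For fatty acid and triglyceride synthesis (22 genes), the 108 h test gave 0 that rose and 17 that fell, the 132 h test 0 and 19. The median effect was −0.79 at 108 h and −1.24 at 132 h, and the difference was below 0 in 21 of 22. Its median of −0.36 was −0.19 without control replicate 3 at 132 h and −0.22 without CLA replicate 3 at 108 h. Acacb encodes acetyl-CoA carboxylase 2, whose malonyl-CoA product restrains fatty acid entry into mitochondria (GRCm38 chromosome 5, 114146535 to 114250761). At 108 h, Acacb read 636, 616, 787, 679 and 817 CPM in controls and 385, 449, 384, 357 and 401 CPM with CLA. At 132 h, Acacb read 761, 835, 1037, 1057 and 999.8 CPM in controls and 393, 248, 251, 272 and 311 CPM with CLA. The diets were apart at both times, and the control mean was higher and the CLA mean lower at 132 h, although neither change within a diet was called. The effect was −0.84 ± 0.13 and then −1.67 ± 0.13, a difference of −0.83 (95% interval −1.20 to −0.46, adjusted p = 0.0831). Fasn, the fatty acid synthase gene, varied more between mice, with effects of −1.58 ± 0.28 and −2.10 ± 0.29 and a difference of −0.51 (95% interval −1.30 to 0.28, adjusted p = 0.624). Scd1, a desaturase gene, was at −1.20 at 108 h and −1.59 at 132 h. Mlxipl, which encodes the sugar-responsive transcription factor ChREBP, was at −0.95 at 108 h and −1.64 at 132 h.

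Mitochondrial genes were lower with CLA, and how much more so at 132 h depended on the animals included. Of 25 nuclear genes of the respiratory chain, 17 fell at 108 h and 24 at 132 h, with medians of −0.34 at 108 h and −0.52 at 132 h. The median difference of −0.24 was 0.02 within the first run and −0.44 without the libraries high in skin genes. It was also −0.14 without CLA replicate 2 and −0.16 without control replicate 4, both at 132 h. For the 13 genes of the mitochondrial genome the median difference was −0.17, 0.25 within the first run and −0.43 without CLA replicate 1 at 132 h, the CLA library high in muscle genes. These 13 genes are part of the mitochondrial transcripts, which took 7.76 ± 0.55% (SD, n = 5) of counts in controls and 5.81 ± 0.70% with CLA at 108 h. At 132 h the shares were 8.59 ± 0.83% and 5.66 ± 1.60%. Muscle, which is rich in mitochondria, also differed: its list had a median difference of −0.94, which was 0.48 without control replicate 2 at 132 h, and its part in the mitochondrial values was not tested. Sdha, a subunit of complex II, was at −0.64 at 108 h and −0.93 at 132 h. Of 20 fatty acid oxidation genes, 16 (108 h) and 19 (132 h) fell. A single gene of this list rose, at both times: Cpt1a, the enzyme that admits fatty acids to mitochondria, with effects of 1.24 ± 0.14 and 1.35 ± 0.14. Its difference was 0.10 (95% interval −0.30 to 0.51, adjusted p = 0.874), so it held.

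Blood vessel genes were mostly lower: of 18 endothelial genes, the 108 h test gave 1 that rose and 13 that fell, the 132 h test 1 and 15. Pecam1, which encodes the junction protein CD31, had effects of −0.51 ± 0.08 and −0.66 ± 0.08. Tek, the angiopoietin receptor, fell at 108 h (−0.48 ± 0.09), while its effect at 132 h (−0.15 ± 0.09) was not called. The lymphatic marker Lyve1, also made by some macrophages, rose at both times (0.71 at 108 h and 1.09 at 132 h). Of 17 circadian clock genes, the 108 h test gave 0 that rose and 4 that fell, the 132 h test 1 and 8, with a median difference of −0.26. The 4 that fell at 108 h were near the share of all tested genes that fell then (22.7%; 29.2% at 132 h). Nr1d1, the clock repressor REV-ERB alpha, was at −0.47 ± 0.35 at 108 h, not called, and fell at 132 h (−1.62 ± 0.36), with a difference of −1.15 (95% interval −2.17 to −0.14, adjusted p = 0.335). The hour of day at which mice were killed is not given in the sources used here.

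Cell division genes were high with CLA at both times, and 9 of the 20 mitosis genes met the held rule. All 20 mitosis genes rose at 108 h and all 20 at 132 h, with medians of 2.03 at 108 h and 2.30 at 132 h. The median difference of 0.32 was 0.13 without control replicate 2 at 108 h. Mki67, the proliferation marker, read 21.1, 67.6, 34.8, 33.8 and 27.6 CPM in controls and 120.1, 142, 157, 147 and 95.9 CPM with CLA at 108 h. At 132 h, Mki67 read 45.2, 40.2, 30.4, 19.1 and 23.3 CPM in controls and 116, 155, 168, 124 and 122 CPM with CLA. CLA libraries were above all controls at both times and overlapped between the times. The effect was 1.84 ± 0.28 and 2.11 ± 0.29, with a difference of 0.27 (95% interval −0.52 to 1.06, adjusted p = 0.824), an interval just over 1 log2 unit at its upper end. Birc5 (survivin) met the held rule, with effects of 2.60 at 108 h and 2.86 at 132 h. Of 22 DNA replication genes, 22 rose at 108 h and 21 at 132 h, 18 held, and the median difference was 0.06 (−0.02 to 0.13 when 1 library was left out). Pcna, the sliding clamp of DNA polymerase, was at 1.30 at 108 h and 1.55 at 132 h.

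The genes with the largest held effects were chosen by the smaller of their effects, and their values are given as a description. Besides Birc5, higher with CLA were Clec4b1, a C-type lectin of myeloid cells (2.94 at 108 h and 3.20 at 132 h), Lpxn, a leukocyte adaptor (2.54 at 108 h and 2.86 at 132 h), the imprinted gene Peg10 (2.51 at 108 h and 2.85 at 132 h), and Spdl1, a spindle protein (2.50 at 108 h and 2.85 at 132 h). Zranb3 (2.77 at 108 h and 2.99 at 132 h), a DNA repair helicase, Arhgef39 (2.50 at 108 h and 2.82 at 132 h) and Gnat3 (2.51 at 108 h and 2.66 at 132 h) completed the 8. Lower with CLA were Apln, the peptide hormone apelin (−2.29 at 108 h and −2.13 at 132 h), Podn, podocan, a matrix proteoglycan (−1.62 at 108 h and −1.68 at 132 h), Bche, butyrylcholinesterase (−1.61 at 108 h and −1.63 at 132 h), and Apcdd1, an inhibitor of Wnt signalling (−1.71 at 108 h and −2.02 at 132 h). Pxmp2, a peroxisomal membrane protein (−1.66 at 108 h and −2.10 at 132 h), Zfp185 (−2.05 at 108 h and −2.33 at 132 h), Amy1, an amylase with near-identical copies (−1.59 at 108 h and −1.92 at 132 h), and Myom3, a muscle gene (−1.93 at 108 h and −2.21 at 132 h), were the other 4. The difference nearest 0 was that of Bche, −0.02 (95% interval −0.40 to 0.36, adjusted p = 0.978).

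The integrated stress response showed little net shift. This response couples amino acid or protein-folding stress to the transcription factors ATF4 and CHOP. Of 24 genes, the 108 h test gave 14 that rose and 1 that fell, the 132 h test 14 and 2, 12 met the held rule, and the median effect was 0.60 at 108 h and 0.54 at 132 h. ATF4 with C/EBP partners is known to bind composite sites of the form TGATGNAA. That motif was searched on both strands of RefSeq promoter windows (GRCm38.p6, 250 bases before to 50 after the start, 300 bases in all). It occurred in 3.97% of 32851 windows, in 2.96% of the 12630 tested genes with a window and in 8 of the 24 stress genes. Of those 8, Atf3, Fgf21, Slc7a11 and Trib3 rose at both times, Asns, Chac1 and Nupr1 had no called effect at either time, and Herpud1 fell at 132 h and was not called at 108 h. A match is a description of the letters and no evidence of binding. The 24 genes were listed as known genes of this stress response, so their higher share is no independent result. The windows of 3 of the genes that rose at both times are shown 5′ to 3′ on the gene's strand, because these genes carried the largest effects of the 8; capitals mark the match, which in all 3 reads TTNCATCA, on the opposite strand.
Atf3 (chr1:191183284-191183583, minus strand): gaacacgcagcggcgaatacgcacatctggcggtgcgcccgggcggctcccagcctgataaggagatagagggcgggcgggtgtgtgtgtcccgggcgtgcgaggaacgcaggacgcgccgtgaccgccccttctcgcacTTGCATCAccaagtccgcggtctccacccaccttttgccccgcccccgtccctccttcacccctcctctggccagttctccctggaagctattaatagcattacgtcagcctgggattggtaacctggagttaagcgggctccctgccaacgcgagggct
Fgf21 (chr7:45615441-45615740, minus strand): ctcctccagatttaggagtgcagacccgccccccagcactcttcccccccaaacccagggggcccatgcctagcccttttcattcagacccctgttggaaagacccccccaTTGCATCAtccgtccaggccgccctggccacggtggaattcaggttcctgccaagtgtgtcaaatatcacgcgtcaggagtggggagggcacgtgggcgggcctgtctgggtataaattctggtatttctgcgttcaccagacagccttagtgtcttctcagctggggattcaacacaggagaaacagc
Trib3 (chr2:152344011-152344310, minus strand): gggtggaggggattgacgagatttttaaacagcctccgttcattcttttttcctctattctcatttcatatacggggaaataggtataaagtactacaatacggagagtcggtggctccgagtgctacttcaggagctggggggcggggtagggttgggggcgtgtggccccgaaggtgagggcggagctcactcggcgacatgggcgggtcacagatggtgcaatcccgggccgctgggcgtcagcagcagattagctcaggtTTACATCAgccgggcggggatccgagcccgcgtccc
The match starts 110 bases before the annotated start in Atf3, 139 bases before it in Fgf21 and 14 bases after it in Trib3.

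Atf3 encodes a stress-induced transcription factor. At 108 h, Atf3 read 3.78, 6.18, 4.54, 10.95 and 6.29 CPM in controls and 79.2, 96.1, 101, 109 and 74.5 CPM with CLA. At 132 h, Atf3 read 4.71, 4.44, 3.24, 9.53 and 4.54 CPM in controls and 70.6, 140.5, 127, 86.6 and 165 CPM with CLA. No CLA library was near the controls at either time. The effect was 3.85 ± 0.29 and then 4.51 ± 0.30, with a difference of 0.65 (95% interval −0.13 to 1.43, adjusted p = 0.495). Fgf21 encodes a hormone released from stressed liver and fat. At 108 h, Fgf21 read 0.207, 0.19, 0.227, 0.311 and 0.143 CPM in controls and 2.91, 4.73, 5.58, 2.56 and 3.85 CPM with CLA. At 132 h, Fgf21 read 0.852, 0.13, 0.309, 0.176 and 0.132 CPM in controls and 5.88, 7.86, 3.54, 2.27 and 8.14 CPM with CLA. The diets were apart at both times, although all levels were low. Its effect was 4.15 ± 0.54 and 4.08 ± 0.54, and the difference, −0.07 (95% interval −1.40 to 1.27, adjusted p = 0.981), was too wide to call it held. Trib3, a pseudokinase that restrains ATF4, was at 1.74 at 108 h and 1.49 at 132 h, and Slc7a11, the cystine transporter, at 1.12 at 108 h and 1.05 at 132 h; both met the held rule. Fos, an immediate early gene, was at 2.58 at 108 h and 2.57 at 132 h.

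A smaller number of effects had lower point estimates at 132 h. Among the 7300 genes called at both times with 1 sign, 922 had a larger effect at 132 h at an unadjusted p under 0.05, and 44 a smaller one. Star, which encodes the protein that brings cholesterol into mitochondria for steroid synthesis, was 1 of the 44 and is named after its values were seen. At 108 h, Star read 2.80, 3.39, 3.76, 4.30 and 3.11 CPM in controls and 16.4, 20.7, 15.9, 10.5 and 17.5 CPM with CLA. At 132 h, Star read 3.12, 4.04, 3.78, 3.88 and 4.19 CPM in controls and 9.79, 8.78, 9.16, 11.4 and 12.4 CPM with CLA. It rose at both times (2.22 at 108 h and 1.44 at 132 h), and its difference was −0.78 (95% interval −1.19 to −0.37, adjusted p = 0.12). Slc2a1 encodes the glucose transporter GLUT1 (GRCm38 chromosome 4, 119108711 to 119137983). At 108 h, Slc2a1 read 5.72, 6.18, 8.04, 6.88 and 7.33 CPM in controls and 11.9, 14.3, 14.6, 10.1 and 9.55 CPM with CLA, with the diets apart. At 132 h, Slc2a1 read 9.33, 8.68, 7.41, 6.41 and 10.7 CPM in controls and 7.19, 10.1, 8.78, 9.20 and 10.3 CPM with CLA, with the diets overlapping. The effect was 0.82 ± 0.13 (adjusted p = 1.88e-06) and then 0.10 ± 0.13 (adjusted p = 0.523), a difference of −0.72 (95% interval −1.09 to −0.36, adjusted p = 0.116). In the deposited RPKM values the Slc2a1 difference was −0.18, on the log2(RPKM + 0.1) scale.

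Of the 18 glycolysis and hypoxia genes, the 108 h test gave 7 that rose and 4 that fell, the 132 h test 4 and 9, and the median difference was −0.27 (−0.09 within the first run; −0.18 without CLA replicate 3 at 108 h). Over all tested genes the shares were 24.4% higher and 22.7% lower at 108 h, then 28% and 29.2% at 132 h, so the 4 that fell at 108 h were near that background and the 4 that rose at 132 h below it. Tpi1, a glycolytic enzyme gene, rose at both times (0.58 at 108 h and 0.33 at 132 h), whereas Vegfa, the vessel growth factor, fell at both (−0.78 at 108 h and −1.15 at 132 h). Of 18 NRF2 antioxidant genes, the 108 h test gave 11 that rose and 2 that fell, the 132 h test 10 and 2, with a median difference of −0.09 (−0.15 to −0.05 when 1 library was left out). Gclm, a subunit of the enzyme that starts glutathione synthesis, had effects of 0.87 at 108 h and 0.46 at 132 h and a difference of −0.41 (95% interval −0.72 to −0.11, adjusted p = 0.24), and Srxn1, sulfiredoxin, effects of 2.33 at 108 h and 2.01 at 132 h. Ppp1r15a, which ends the translational block of the stress response, was at 1.22 at 108 h and 0.87 at 132 h. Among immediate early genes, 9 of 14 rose at 108 h and 7 at 132 h; Ier2 rose at 108 h (0.46 ± 0.10), and its effect at 132 h was 0.16 ± 0.10.

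Among the other genes with the smallest p below 0, Gne, the first enzyme of sialic acid synthesis, fell at both times (−0.29 at 108 h and −0.71 at 132 h), with a difference of −0.42 (95% interval −0.59 to −0.25, adjusted p = 0.0749). Atg2b, an autophagy lipid transfer protein (−0.03 at 108 h and −0.33 at 132 h), and Polg, the polymerase that copies mitochondrial DNA (−0.05 at 108 h and −0.32 at 132 h), fell at 132 h and were not called at 108 h. Lman2l, a lectin of the secretory pathway (−0.17 at 108 h and −0.48 at 132 h), Ptpn14, a phosphatase (−0.78 at 108 h and −1.31 at 132 h), and Tppp, a tubulin-binding protein (−0.76 at 108 h and −1.60 at 132 h), fell at both times.

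For epithelial genes the sign of the estimate changed with the libraries used. Of 20 luminal genes, 1 rose at 108 h and 2 at 132 h, below the 24.4% and 28% of all tested genes that rose. Their median difference was 0.26, 0.03 to 0.51 when 1 library was left out, −0.27 within the first run and 1.24 without the libraries high in skin genes. Krt8 had a difference of 0.64 (95% interval −1.33 to 2.61, adjusted p = 0.833). Of 14 basal genes, 9 fell at 108 h and 10 at 132 h, in a list that skin genes also enter. Esr1, the estrogen receptor gene, had no called effect at either time (−0.26 at 108 h and 0.07 at 132 h). Igf1, a growth factor of the mammary stroma, fell at 108 h (−0.39 ± 0.14), and its effect at 132 h was 0.03 ± 0.14. All Igf1 values of the controls at 132 h lay below those of the controls at 108 h, and the CLA libraries of both times overlapped. Fgf10, a stromal growth factor for the epithelium, rose at both times (0.90 at 108 h and 1.46 at 132 h), with a difference of 0.56 (95% interval 0.18 to 0.93, adjusted p = 0.212).

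Lymphocyte genes were few and low. The T, B and NK cell list had a median difference of −0.83, and 13 of 16 lay below 0, at list means of −0.68 to 1.44 log2 CPM over the 20 libraries. Without control replicate 1 at 132 h the median difference was −0.45, without control replicate 5 at 132 h −0.43, and without CLA replicate 3 at 108 h −0.42. Cd8a, a T cell gene, read 2.43, 0.326, 0.772, 0.412 and 0.926 CPM in controls at 132 h, with replicate 1 highest, and 0.135, 0.19, 0.301, 0.175 and 0.37 CPM with CLA. Cd4, also found on some macrophages, rose at both times (1.13 at 108 h and 0.77 at 132 h). The lymph node had been cut out of each gland; whether remnants entered these values was not tested.

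The difference equals the change with CLA minus the change in controls. From 108 h to 132 h, 491 genes (2.75%) changed in controls, 149 higher and 342 lower, and 1 gene (0.0056%) changed with CLA. Among the 2216 genes with an unadjusted p under 0.05 for the difference, the change was larger in controls for 1453 (65.6%) and larger with CLA for 763, against 60.0% larger in controls over all tested genes. These changes cross the 2 count tables. The count of 491 was 39 in a fit to the 20 libraries alone and 0 with the animal-number run added to that fit. It was 0 within the first run and 1 without the libraries high in skin genes. It was 228 without control replicate 1 and 285 without control replicate 3, both at 108 h. For the count of 1 with CLA, DESeq2 gave 81, and 1513 genes (8.48%) had an unadjusted p under 0.05. The 1 gene was Phactr1, a regulator of actin that binds protein phosphatase 1. At 108 h, Phactr1 read 14.5, 13.7, 13.9, 14.9 and 14.2 CPM in controls and 10.4, 12.5, 12.6, 12.1 and 14.4 CPM with CLA. At 132 h, Phactr1 read 15.7, 14.9, 15.3, 13.1 and 15.8 CPM in controls and 18.5, 15.3, 18.3, 19.4 and 19.7 CPM with CLA. All 5 CLA libraries of 132 h exceeded those of 108 h.

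By list, the median change from 108 h to 132 h was −0.39 in controls and 0.11 with CLA for macrophage identity, −0.73 in controls and −0.12 with CLA for chemokines and 0.35 in controls and −0.04 with CLA for fatty acid and triglyceride synthesis. For the fibroblast matrix it was −0.18 in controls and 0.18 with CLA. Few list members changed within a diet by the test. In the macrophage, chemokine and lipid synthesis lists 0 did so in controls. Of the matrix genes 1, Lum, was called lower in controls (change −0.51, adjusted p = 0.015). That call was lost in the fit to the 20 libraries with the animal-number run in the model, which also lacks the other libraries of the series. In the same 4 lists 0 members were called with CLA.

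**Figure D4:**
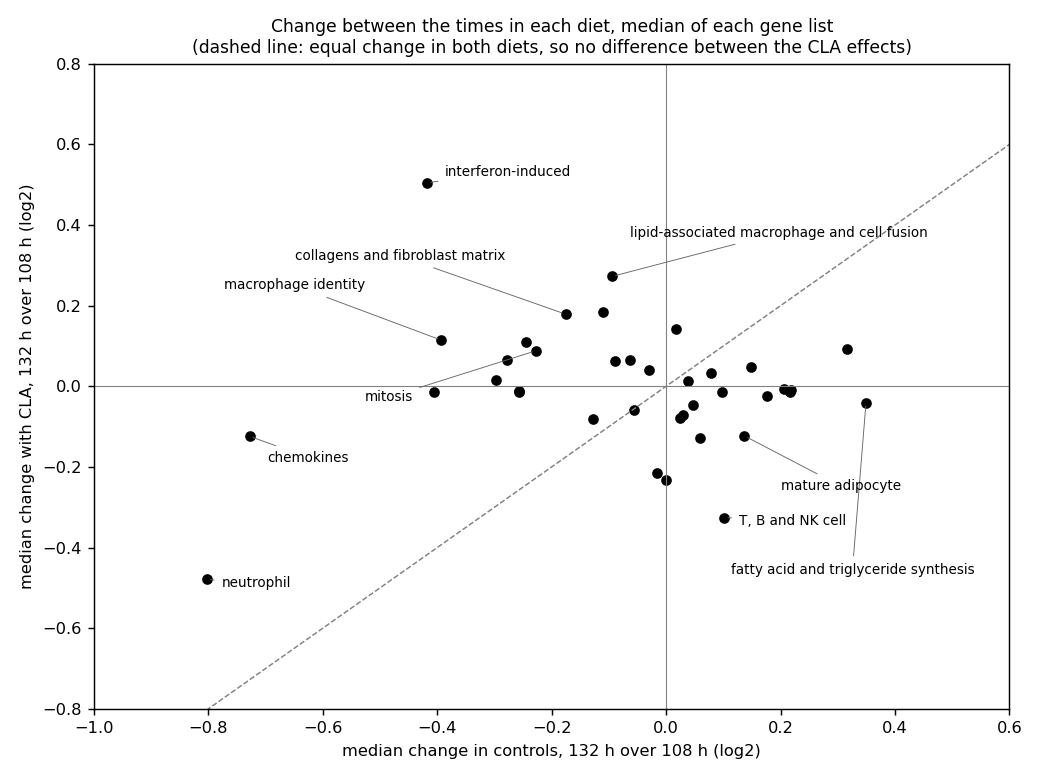
Median change from 108 h to 132 h (log2) of each gene list in controls (x axis) and with CLA (y axis), 1 dot per list, 38 lists; on the dashed line both diets changed alike. Macrophage and chemokine lists lie left of 0, the lipid synthesis list right of 0 with little change on CLA, and the fibroblast matrix list above and left of 0.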

How the data were processed

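The authors deposited raw gene counts, with the 108 h libraries in 1 table and the 132 h libraries in another, and RPKM values (length- and depth-scaled reads) in a matching pair. Which aligner and counting program made them is not given in the sources used here. Per the submitters' processing notes the build was GRCm38. Libraries were stranded and made from poly(A) RNA, per the labels' protocols. Counts and RPKM were made differently: Ntm averaged 164400 counts and an RPKM of 0.152, Gapdh 187.4 counts and 21.6. Overlapping genes and genes with near-identical copies are therefore less certain.

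Counts of all 40 libraries and 8 groups were fitted together with edgeR 4.0.16 (R 4.3.3): TMM scaling, filterByExpr (minimum count 10, total 15), robust quasi-likelihood F tests, Benjamini-Hochberg adjustment over 17852 genes and a threshold of 0.05. The standard error was taken as the log2 fold change, without sign, over the root of its F value. CPM uses TMM-scaled totals. Scripts were tested on simulated data. As alternatives, DESeq2 1.42.0, RLE and upper-quartile scaling and other filters were tried, and also limma 3.58.1 on RPKM with pseudocounts of 0.1 and 1 (genes above 0 in at least 5 libraries), the 20 libraries alone, the run of animal numbers, the libraries high in skin genes left out, and each library left out. Animal numbers in the labels fall into runs whose meaning the labels do not give. The run entered as a term only in a fit to the 20 libraries. No library was a copy of another (lowest chi-square per gene 12.96 over 190 pairs). The labels name separate animals, so the spread is between mice.

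Positions are from GENCODE vM21 (GRCm38), which matched 17178 of 17852 tested genes by symbol. The members, 40 gene lists (657 genes) and tests were chosen with earlier results of these data known. As no difference was called, the rule named, leaving out predicted genes and those averaging under 1 log2 CPM, the 8 smallest p in each direction and the 8 held genes in each direction with the largest smaller effect; it also named the 2 members of each list with the smallest difference p, and a panel of 15 genes (Adgre1, Trem2, Mmp12, Adipoq, Fasn, Scd1, Atf3, Fgf21, Cpt1a, Ucp1, Krt8, Mki67, Esr1, Col1a1 and Pecam1). Others were named after their values were seen: Acp5, Apoe, Asns, Cd200r1, Cd4, Cd8a, Chac1, Col1a2, Col3a1, Csf1r, Cxcl9, Epcam, Fabp4, Fap, Fos, Il1rn, Itgax, Krt5, Krt14, Loxl2, Lpar1, Lyve1, Nupr1, Phactr1, Postn, Slc7a11, Srxn1, Star, Tnc, Tnf, Tpi1, Trib3, Tyrobp and Vegfa.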

Additional observations from a re-analysis of the deposited data

Results flagged for a closer look

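Among 31 genes (the panel and those with the smallest difference p) and 4 list means, 140 groups of 5 libraries were searched for a library far from the other 4 (Dixon's test, critical value 0.710). It marked 6, where about 7 would be marked at a rate of 1 in 20. Muscle genes in CLA replicate 1 at 132 h averaged 2.12 log2 CPM, and the other 4 ranged from −0.50 to −0.16. The interferon-induced list stood at 6.20 log2 CPM in CLA replicate 3 at 132 h, against 3.93 to 4.31. Trem2 was at 139.8 CPM in CLA replicate 4 at 108 h, against 91.6 to 101; this is also the library whose removal gave 137 called differences. Krt8 was at 2.24 CPM in CLA replicate 3 at 108 h, against 17.7 to 33.9. Pecam1 reached 277 CPM in CLA replicate 5 at 108 h, against 219 to 231. Polg was at 59.5 CPM in CLA replicate 3 at 132 h, against 64.6 to 66.7.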

How the results depend on the processing

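Over 31 alternatives the direction of the difference was kept in every one for 132 of 171 named genes (5192 of 5294 values). Of the 31, 20 left out only 1 library each, and many of the genes were named for a small difference p in these same data. A kept direction was therefore likely beforehand. Calls of the difference, 0 in edgeR, numbered 130 with DESeq2, 2 without a filter on low counts, 3 with a minimum count of 50, 5 with limma on log2(RPKM + 0.1), 14 with limma on log2(RPKM + 1) and 4 with the 20 libraries alone. They stayed at 0 with RLE or upper-quartile scaling, with the animal-number run in the model, within the first run and without the 6 libraries high in skin genes. Leaving out 1 library gave 0 to 137 calls (79 without CLA replicate 5 at 132 h, 5 without CLA replicate 1 at 132 h). Differences called with effects that were called at both times, of 1 sign and larger at 132 h, were 0 in edgeR. They numbered 57 with DESeq2, 2 without a filter, 3 with the minimum of 50, and 4 and 9 with limma on RPKM. With the 20 libraries alone the count was 1, and it was 0 to 63 when 1 library was left out. Differences called with an effect at 132 h only numbered 58 with DESeq2, 1 and 4 with limma, 3 with the 20 libraries alone and 0 to 57 by leaving out 1 library. Differences called with a smaller effect at 132 h numbered 8 with DESeq2 and 0 to 6 by leaving out 1 library. The held genes, 5875, were 2572 within the first run and 3696 with an interval of 0.5 log2 units, a width added after seeing the data; the first run called 4832 genes at 108 h and 6530 at 132 h. Changes in controls, 491, numbered 39 with the 20 libraries alone, 0 with the run term, 0 within the first run and 1 without the libraries high in skin genes, and 228 to 634 when 1 library was left out. Changes with CLA, 1, numbered 81 with DESeq2, 12 with the minimum of 50, 8 with the 20 libraries alone, 4 with the run term, 0 within the first run, 6 without the libraries high in skin genes and 0 to 24 when 1 library was left out. The cause of these shifts was not tested. RPKM tables were normalized separately, so changes across the tables were not computed from them. No paired analysis was possible because the labels give each mouse its own number and share none between groups. With 5 mice a group the median interval of a difference was 0.368 log2 units to either side.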

Other observations

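Genes outside the lists and the smallest p values also had differences above 0, and these were chosen after their values were seen. Cd200r1, an inhibitory receptor of myeloid cells, rose at both times (2.22 at 108 h and 3.45 at 132 h), with a difference of 1.24 (95% interval 0.67 to 1.80, adjusted p = 0.0973). In controls it fell from 108 h to 132 h by 1.01 log2 (adjusted p = 0.00559 by edgeR). That call was lost in the fit to the 20 libraries with the animal-number run in the model, and within the first run. Fap, a surface protease of activated fibroblasts, had no called effect at 108 h and rose at 132 h (0.09 at 108 h and 0.64 at 132 h), with a difference of 0.55 (95% interval 0.29 to 0.81, adjusted p = 0.0973). Loxl2, which crosslinks collagen, rose at both times (0.26 at 108 h and 0.80 at 132 h). Lpar1, a receptor of lysophosphatidic acid, was at 0.05 ± 0.09 at 108 h, not called, and rose at 132 h (0.64 ± 0.10).

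Ucp1, the uncoupling protein of brown and beige fat, had no called effect at either time (−0.60 at 108 h and −0.32 at 132 h), and its CLA libraries at 132 h ranged from 273 to 1294 CPM. Cidea, a lipid droplet protein of such fat, fell at both times (−0.88 at 108 h and −1.39 at 132 h). Of 13 brown and beige fat genes, the 108 h test gave 1 that rose and 3 that fell, the 132 h test 2 and 4. The counts that fell were near the shares of all tested genes (22.7% and 29.2%), and those that rose were below theirs (24.4% and 28%). Of 15 insulin signalling genes, 10 fell and 2 rose at each time, and 12 met the held rule. Over all tested genes 22.7% fell and 24.4% rose at 108 h, and 29.2% and 28% at 132 h. The 2 that rose were below that background. Insr, the insulin receptor gene, was at −0.47 at 108 h and −0.74 at 132 h. Targets of PPAR alpha and delta were mixed: of 14, the 108 h test gave 5 that rose and 2 that fell, the 132 h test 5 and 5. Their median effect was 0.17 at 108 h and −0.20 at 132 h. Ucp3, an uncoupling protein and 1 of these targets, fell at both times (−1.21 at 108 h and −1.77 at 132 h).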
